A study of Mus musculus with 3 samples.

Results

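H3K4me1 enriched regions of cytokine treated mouse islets were described at 10 genes that prepare peptides for display on MHC class I or control that process: Psmb8, Psmb9, Tap1, Tap2, Tapbp, H2-K1, H2-D1, B2m, Nlrc5 and Ciita. A region was counted at a gene when it overlapped the gene or lay within 20 kb of any of its annotated transcriptional start sites (TSS, GENCODE M1, build mm9). Psmb9, Tap1, Psmb8 and Tap2 lie side by side on chromosome 17 and were treated as 1 locus, so the 10 genes form 7 loci. By this rule 29 of the 65709 deposited regions belonged to the 10 genes, and together they covered 78.6 kb.

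The islets, bulk tissue made up mostly of insulin-producing β-cells, came from male and female CD1 mice of 8 to 12 weeks by the labels, and from ICR mice of 8 to 10 weeks by the study's methods. After 4 to 6 h of recovery they were exposed in RPMI for 4 days to IFNγ at 1.6 ng/ml, IL-1β at 0.25 ng/ml and TNFα at 0.16 ng/ml, the only condition for which regions were examined. DNA of 4 ChIP experiments, from at least 10 mice, was pooled into 1 library, so there is no replicate and no result here has an error or a test between samples. The list holds the position of each region, with no read count or height, and the depth is unknown. Untreated islets and RNA levels were not analysed here, so nothing below says whether a region was gained, lost or unaltered with the cytokines. In islets as a whole, a region in few cells and a weaker mark in all cells cannot be told apart.

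MHC class I molecules show fragments of a cell's own proteins to CD8+ T cells. The fragments are cut by the proteasome, whose catalytic subunits are replaced by immunoproteasome subunits under IFNγ, pumped into the endoplasmic reticulum by the TAP transporter, and loaded by tapasin onto a heavy chain paired with β2-microglobulin. In type 1 diabetes, class I on β-cells is what CD8+ T cells recognise. H3K4me1 is a histone mark of enhancers, active or poised, and it is also found beside active promoters, where the nucleosomes nearest the start commonly carry H3K4me3.

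Regions of this mark lay at 9 of the 10 genes, all except H2-K1, beside 76.4% of 22208 protein-coding genes held to the same rule. Of the 10 genes, 8 had a region within 2 kb of a TSS, beside 62.1% of protein-coding genes. A TSS lay inside a region at 7 genes (Psmb8, Psmb9, Tap1, Tap2, Tapbp, H2-D1 and Ciita), beside 39.3% of protein-coding genes. The 95% exact binomial interval of this share was 38.6% to 39.9%. It covers counting error only, takes genes as independent although neighbours can share a region, and says nothing about error between libraries. The 10 genes have many annotated starts, with a median of 5 against 2 for protein-coding genes, and 16 of their 51 starts were covered. At the 5′-most start alone, 3 of the 10 genes were covered (Psmb8, Tapbp and H2-D1), beside 31.1% of protein-coding genes, so the higher share at any start was not seen at the first one.

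**Figure D1:**
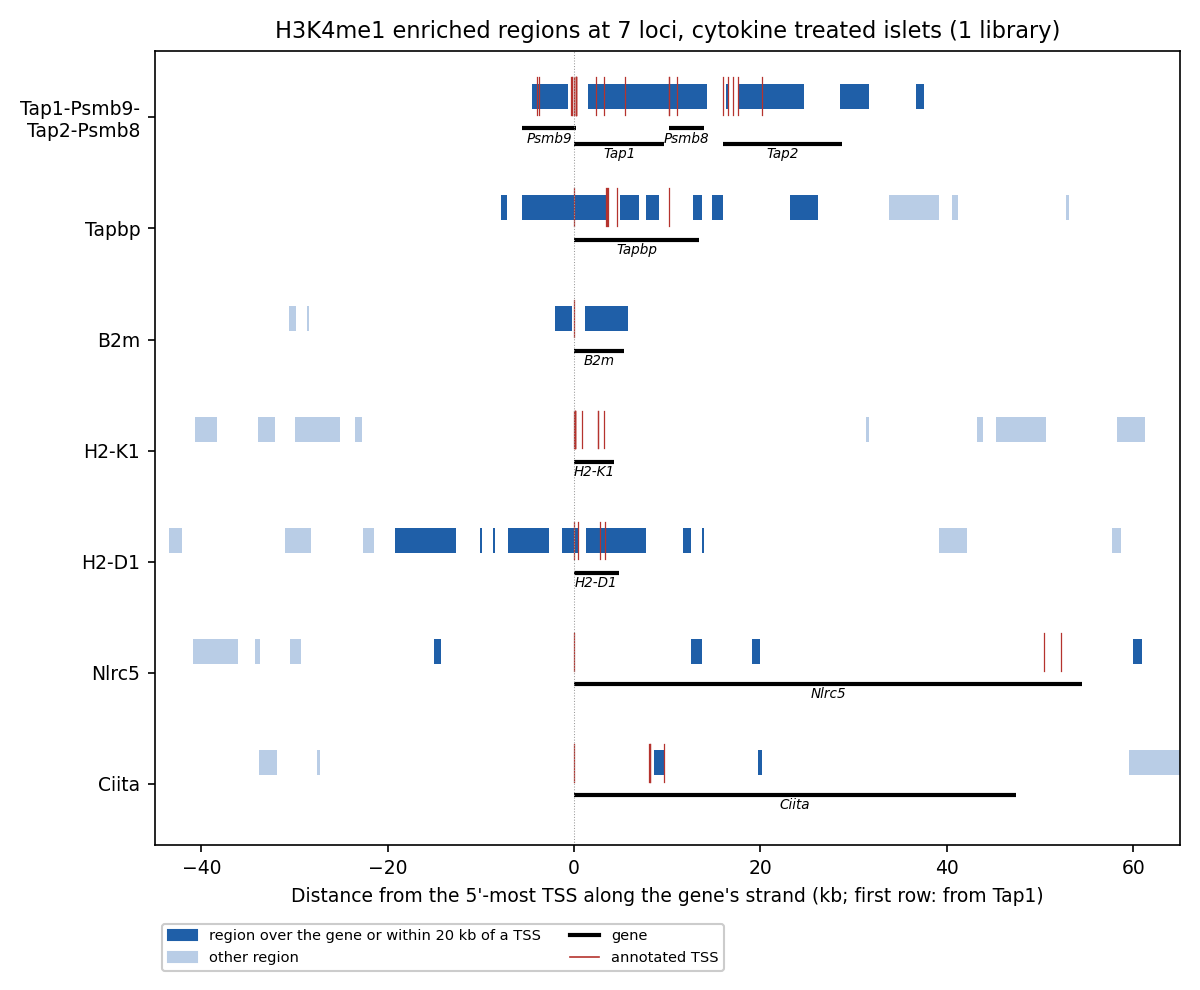
Positions of H3K4me1 enriched regions (blocks) at the 7 loci, in kb from the 5′-most TSS along the gene's strand, with genes as black bars and annotated TSS as red lines. Dark regions overlap a gene or lie within 20 kb of a TSS and light ones do not. The first 2 loci and H2-D1 are densely marked, H2-K1 lies in a stretch without regions, and Nlrc5 and Ciita have a few short ones.

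The mark was broad at 6 of the 10 genes, which make up 3 of the 7 loci (the block, Tapbp and H2-D1). Within 20 kb of the 5′-most TSS, regions covered 66.3% of the sequence at Tap2, 63.7% at Psmb8, 51.5% at H2-D1, 48.3% at Psmb9, 47.7% at Tap1 and 38.5% at Tapbp. The median protein-coding gene had 7.5% covered, with an interquartile range of 0% to 17.8%. B2m followed at 16.0%, Nlrc5 at 7.0%, Ciita at 3.59% and H2-K1 at 0%. The genes of the peptide supply line and H2-D1 were thus well above the median gene. Both transactivator genes were below it, Nlrc5 only slightly and by a record without a coding transcript. The values of neighbours in the block share most of their sequence. Tap2 had more cover than 99.7% of protein-coding genes, Tapbp more than 94.2% and B2m more than 71.4%.

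**Figure D2:**
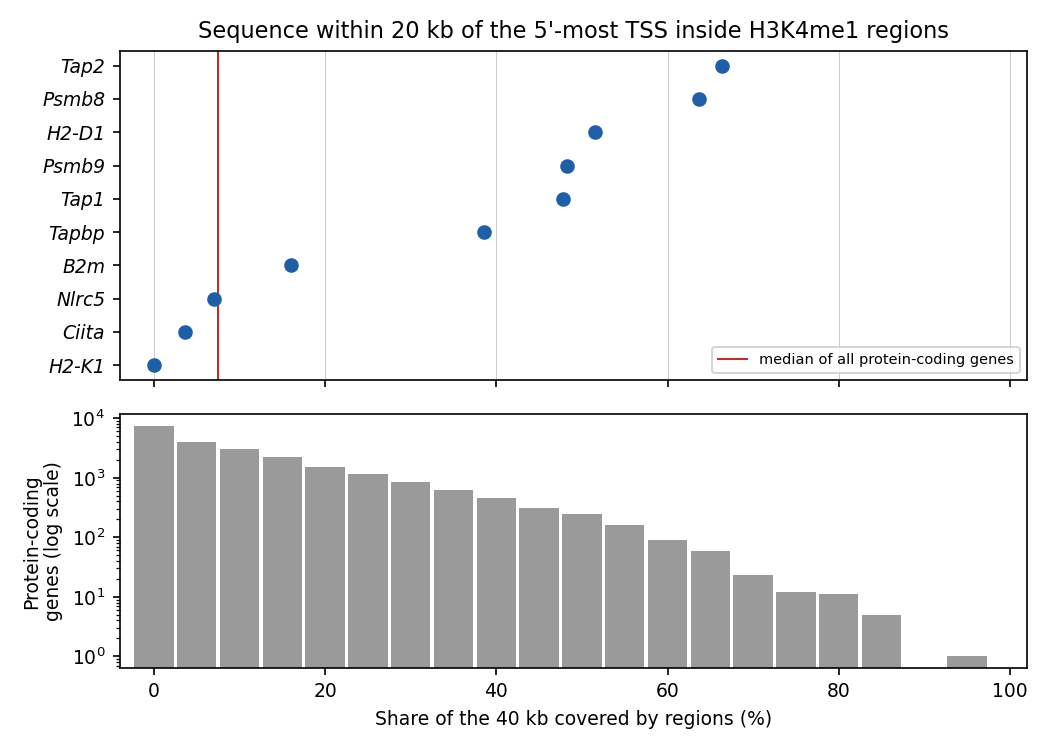
Top, share (%) of the 40 kb around the 5′-most TSS inside H3K4me1 regions for each of the 10 genes, with the median of all protein-coding genes as a red line. Bottom, number of protein-coding genes (log scale) by the same share, in bins of 5 percentage points. 7 of the 10 genes lie right of the median of 7.5%, and 6 of them at 38.5% or more.

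Many genes of this part of chromosome 17 had cover above the median gene. The other 93 protein-coding genes between Tapbp and H2-D1, a stretch of 1347 kb, had a median of 17.5% covered within 20 kb and a median of 4 regions, and 43 of them (46.2%) had a covered TSS. The median over the 10 genes was 43.1%, with a median of 4 regions against 2 for protein-coding genes, but it counts the block 4 times. With the block taken once, the middle one of the 7 loci was B2m at 16.0%, within the interquartile range of protein-coding genes. This value is also below the 17.5% of the other genes of the stretch, but the 2 are not like for like. B2m, Nlrc5 and Ciita lie on other chromosomes, and the 93 genes were not joined into loci. The regions themselves were of ordinary width, with a median of 1200 bp for the 29 and for all regions, although 5 of the 29 (17.2%) were wider than 5 kb against 8.13% of all, and 4 (13.8%) had the smallest size of 200 bp against 2.95%. Of the 29, 7 covered a start of the 10 genes, 5 lay within 2 kb of one without covering it and 17 lay farther away. The rule's limit fell between the region 16.55 kb beyond the last Tap2 start, which counted, and one upstream of H2-D1, with its nearer edge at -21.5 kb from the 5′-most start, which did not.

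Psmb9 and Psmb8 encode the immunoproteasome subunits β1i and β5i, which replace their constitutive counterparts and change which peptides the proteasome yields. The block that holds them with Tap1 and Tap2 had 6 regions over 27.8 kb. Psmb8, at chr17:34334666-34338399 on the plus strand, lay entirely inside a region of 12.8 kb (chr17:34326001-34338800), so all 3 of its starts were covered. Only 1.15% of all regions were this wide or wider. The same region took in 8170 bp of Tap1, and its edge ran past the end of Psmb8 to within 2000 bp of the next region. Psmb9, on the minus strand at chr17:34318932-34324709, had 65.8% of its length in a region of 3.8 kb (chr17:34320001-34323800) over the middle of the gene. That region covered 2 internal starts of Psmb9, and the 5 starts at the 5′ end of the gene were uncovered, the outermost 909 bp from it.

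Tap1 and Tap2 encode the subunits of the TAP transporter. Tap1 (chr17:34324498-34334170) is transcribed away from Psmb9, and both genes start within the same 2200 bp without a region, between the 3.8 kb and the 12.8 kb regions. The 5′-most Tap1 start lay 698 bp from the region over Psmb9 and 1503 bp from the one over the body of Tap1. In all, 4 starts of Tap1 lay in this gap and the 3 later ones inside the 12.8 kb region, which covered 84.5% of Tap1. Regions thus stood on both sides of the starts in this gap and not over them. Tap2 (chr17:34340472-34353266) had the same layout at its first start, which lay 1672 bp downstream of the 12.8 kb region and 329 bp upstream of a region of 200 bp (chr17:34340801-34341000). A region of 7 kb (chr17:34342201-34349200) covered the most internal of the 5 starts of Tap2, a region of 3.2 kb lay over its 3′ end, and 58.4% of the gene was covered.

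RefSeq promoter windows (250 bp before to 50 bp after the RefSeq start, table build GRCm38.p6, each placed in mm9 by an exact match) are printed here for Tap1, which starts in the gap beside Psmb9, and for Psmb8, whose window lies wholly inside a region, to show a start outside and a start inside the regions of the same block. Capitals mark matches to the motifs named further on, of which the Tap1 window holds none.
Tap1, chr17:34324251-34324550, plus strand: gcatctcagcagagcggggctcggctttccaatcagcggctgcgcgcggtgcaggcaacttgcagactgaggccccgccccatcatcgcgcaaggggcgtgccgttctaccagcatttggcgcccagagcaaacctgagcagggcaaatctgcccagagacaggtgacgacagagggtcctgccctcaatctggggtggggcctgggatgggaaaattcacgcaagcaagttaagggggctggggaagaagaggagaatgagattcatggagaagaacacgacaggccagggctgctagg
Psmb8, chr17:34334890-34335189, plus strand: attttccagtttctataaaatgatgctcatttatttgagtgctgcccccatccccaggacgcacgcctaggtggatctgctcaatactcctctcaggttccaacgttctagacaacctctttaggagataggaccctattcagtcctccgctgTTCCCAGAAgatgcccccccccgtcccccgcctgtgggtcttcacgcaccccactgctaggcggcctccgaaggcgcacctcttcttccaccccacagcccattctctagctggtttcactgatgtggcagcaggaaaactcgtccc
The RefSeq window of Psmb9 shares 275 bp with that of Tap1 on the opposite strand. None of the 300 bp of the Tap1 window and all 300 bp of the Psmb8 window were in a region.

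Tapbp encodes tapasin, which holds the empty class I molecule at the transporter until a peptide fits. It lies at chr17:34052844-34066235 on the plus strand and had 7 regions over 18.4 kb. The widest, of 9.2 kb (chr17:34047201-34056400), covered the first 2 of its 6 starts and also the starts of Daxx, a histone H3.3 chaperone, and Zbtb22, so it cannot be given to Tapbp alone. The next start, 34056423, lay 23 bp past the edge of this region, less than the 200 bp to which edges are resolved. Regions of 2 kb and 1.4 kb lay wholly in introns of Tapbp, and the regions at its 3′ side lay over the starts of Rgl2, Wdr46 and H2-Ke2. Regions covered 56.7% of the gene.

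B2m encodes β2-microglobulin, the light chain that every class I molecule needs, and has 1 annotated start, on chromosome 2. A region of 1.8 kb (chr2:121971401-121973200) ended 222 bp upstream of it and a region of 4.6 kb (chr2:121974601-121979200) began 1179 bp downstream, covering 78.2% of the gene. The start of B2m thus lay in a gap of 1400 bp between marked flanks, as those of Tap1, Psmb9 and Tap2 did in theirs. B2m lies within Patl2, which is transcribed from the other strand, and both regions also overlapped Patl2.

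Of the 9 genes with a coding transcript, 4 (Psmb9, Tap1, Tap2 and B2m) had their first coding start uncovered with a region on each side within 2 kb, beside 2231 of 22208 protein-coding genes (10%). Psmb9 and Tap1 share a gap, so these 4 genes rest on 3 gaps. The first coding start was inside a region at 3 genes, beside 31.25% of protein-coding genes, and had no region within 2 kb at H2-K1 and Ciita, beside 41.0%. None of the 9 had a region on 1 side only, which 17.7% of protein-coding genes had.

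**Figure D3:**
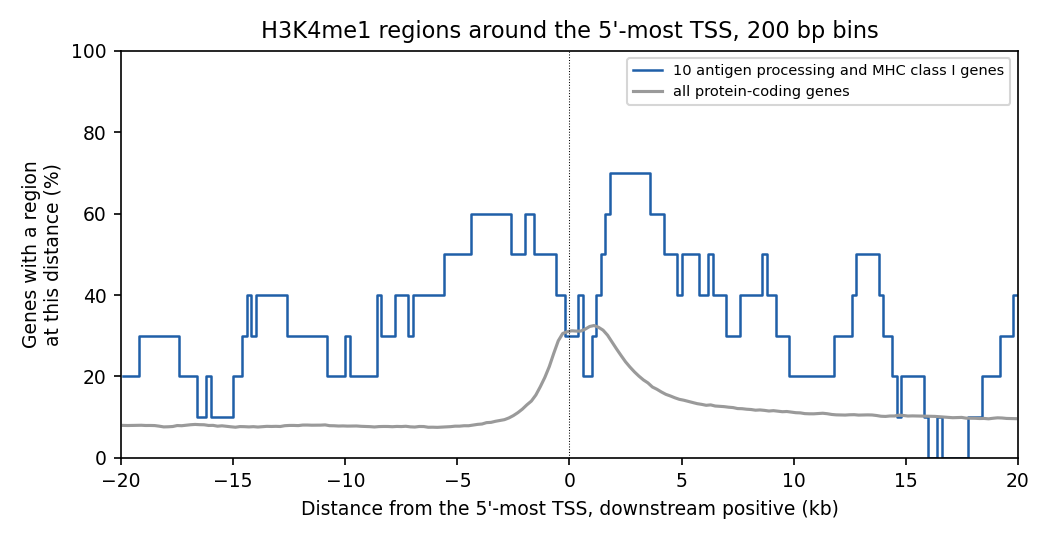
Share (%) of genes with an H3K4me1 region at each distance from the 5′-most TSS, in bins of 200 bp, for the 10 genes (blue) and all protein-coding genes (grey); downstream is positive. Between 1900 and 3500 bp downstream 7 of the 10 genes have a region, while next to the TSS 3 do.

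The profile by distance shows the same layout for the 10 genes together. In the 200 bp bins on either side of the 5′-most TSS 3 of the 10 genes had a region, beside 31.0% and 31.2% of protein-coding genes. At 700 and 900 bp downstream 2 genes did, beside 31.6% and 32.3%. From 1900 to 3500 bp downstream every bin was inside a region at 7 genes, while the share of protein-coding genes fell from 28.4% to 18.4% over these bins. At 2700 to 3100 bp upstream it was 6 genes, beside at most 9.80%. The count was also above the average gene nearer the start, with 5 genes at 900 bp upstream beside 22.4%, 6 genes at 1900 bp upstream beside 13.0% and 6 genes at 1700 bp downstream beside 30.1%. Farther downstream the count went up and down, with 5 genes at 13700 bp beside 10.4%, none at 17700 bp beside 9.74% and 4 genes at 19900 bp beside 9.62%. The values were thus close in the bins next to the start and above the average gene over several kb on both sides, and none of these differences was tested. These bins share regions and neighbouring genes and are not independent.

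H2-K1 and H2-D1 encode the classical class I heavy chains, which hold the peptide. H2-D1 (chr17:35399675-35404444, plus strand) had 8 regions, the largest number at any of the 10 genes. They covered 20.6 kb, less than the 27.8 kb at Tap2, and all 4 starts of H2-D1 were covered. A region of 1.8 kb (chr17:35398401-35400200) lay over its first 2 starts and a region of 6.4 kb (chr17:35401001-35407400) over its internal starts and its end, so that 83.2% of the gene was inside regions. Upstream lay regions of 4.4 kb, with no annotated gene in it, and of 6.6 kb, inside Ddx39b. The other 4 regions at H2-D1 were 200 to 800 bp wide.

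H2-K1 (chr17:34132962-34137278, minus strand) had no region. None of its 10 starts was within 20 kb of one, and the nearest region began 22723 bp upstream of its 5′-most start. The stretch without a region ran for 54 kb, from 34106001 to 34160000, and also held the pseudogenes H2-K2 and Gm4152 and part of Ring1. Stretches this long are not rare, since 321 gaps between the 2665 regions of chromosome 17, and 5 of the 82 gaps between Tapbp and H2-D1, were as long or longer, this one among them. The heavy chain genes thus stood at opposite ends of the 10 in number of regions.

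The promoter windows of H2-K1 and H2-D1 are nearly the same sequence, with 225 of 253 aligned bases identical (88.9%), yet none of the 300 bp of the former and all 300 bp of the latter were in a region. They are printed with that of B2m, of which the first 28 bp were in a region, because these are the windows with the motifs of class I promoters. Capitals mark motif matches.
B2m, chr2:121973173-121973472, plus strand: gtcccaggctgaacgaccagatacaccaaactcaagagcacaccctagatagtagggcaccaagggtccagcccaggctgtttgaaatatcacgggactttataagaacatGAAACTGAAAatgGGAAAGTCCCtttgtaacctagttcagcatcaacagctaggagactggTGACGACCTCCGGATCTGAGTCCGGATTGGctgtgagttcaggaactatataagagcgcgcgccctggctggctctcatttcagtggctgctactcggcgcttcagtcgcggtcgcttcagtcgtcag
H2-K1, chr17:34137229-34137528, minus strand: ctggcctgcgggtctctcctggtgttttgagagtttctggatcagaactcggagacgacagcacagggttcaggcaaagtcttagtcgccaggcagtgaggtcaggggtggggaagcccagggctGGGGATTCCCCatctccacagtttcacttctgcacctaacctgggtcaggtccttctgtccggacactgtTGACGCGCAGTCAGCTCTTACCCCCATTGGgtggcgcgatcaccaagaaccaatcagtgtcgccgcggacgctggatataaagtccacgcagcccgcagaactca
H2-D1, chr17:35399789-35400088, plus strand: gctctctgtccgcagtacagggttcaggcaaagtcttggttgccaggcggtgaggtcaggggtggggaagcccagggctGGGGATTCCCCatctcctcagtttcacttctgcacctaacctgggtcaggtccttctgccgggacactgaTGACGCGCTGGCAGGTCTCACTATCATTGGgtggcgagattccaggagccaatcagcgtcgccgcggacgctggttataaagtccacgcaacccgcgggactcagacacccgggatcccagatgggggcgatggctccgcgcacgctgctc
In B2m the capitals are, in order, an interferon response element match (GAAACTGAAA), an NF-κB consensus match (GGAAAGTCCC) and a stretch that begins with TGACG and ends with ATTGG. In H2-K1 and H2-D1 they are a pair of overlapping NF-κB matches (GGGGATTCCC and GGGATTCCCC) and the TGACG to ATTGG stretch. In Psmb8 they are a GAS match (TTCCCAGAA).

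4 motifs were searched on both strands, in windows from 250 bp before to 50 bp after the 5′-most coding TSS of GENCODE, for the 7 genes that have an entry in the RefSeq table. An interferon response element in the strict form GAAA, any 2 bases, GAAA was found at B2m alone and in 3.82% of 22202 promoters. Other forms of this element were not searched, so a promoter without this match may still hold one. The GAS element TTCNNNGAA, an IFNγ-activated site, was found at Psmb8 and H2-D1 and in 7.94% of promoters. The NF-κB consensus was found at B2m and H2-K1 and in 8.93% of promoters. TGACG or its reverse complement CGTCA, followed after 10 to 30 bases by ATTGG, the X2 and Y box letters of class I promoters, was found at B2m and H2-K1 and in 1.56% of promoters. In the RefSeq windows printed above, an alternative added after the data were seen, the interferon response element was at B2m and the GAS element at Psmb8 alone, and H2-D1 joined B2m and H2-K1 for the NF-κB consensus and for the TGACG to ATTGG stretch. Shares over 32851 RefSeq windows were 3.44%, 8.30%, 8.46% and 1.27% in the order given. A match is a run of letters, and binding was not measured here. Of the RefSeq windows with the TGACG to ATTGG stretch, that of B2m was in part inside, that of H2-D1 wholly inside and that of H2-K1 wholly outside the regions.

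Class I genes have close copies, and short reads from a repeated stretch cannot be placed in 1 position. Of all 32-base words within 2 kb of the 5′-most TSS, 67.3% at H2-K1 and 83.5% at H2-D1 occur once in the mm9 genome. The median was 95.1% for protein-coding genes (interquartile range 90.2% to 100%), and 8.74% of them had a lower share than H2-K1. Within the genes both values were alike, 66.0% for H2-K1 and 68.2% for H2-D1, and the 54 kb without a region had 77.2%. Within 20 kb of the 5′-most TSS the shares were 73.9% at H2-K1 and 85.1% at H2-D1. The region over the body of H2-D1 had the lowest share of its 8 regions, 74.6%. With 50-base words the values near the TSS rose to 85.1% at H2-K1 and 92.3% at H2-D1. Thus less of the sequence at H2-K1 than at H2-D1 is unique near the start, by either word length. The read length and the treatment of reads with several positions are not given in the sources used here, the mm9 reference comes from C57BL/6 mice whereas the islets came from outbred ones, and the part of either in the missing regions was not tested. At Psmb8, Psmb9, Tap1, Tapbp, B2m, Nlrc5 and Ciita 94.8% or more of the words were unique, and at Tap2 80.7%.

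**Figure D4:**
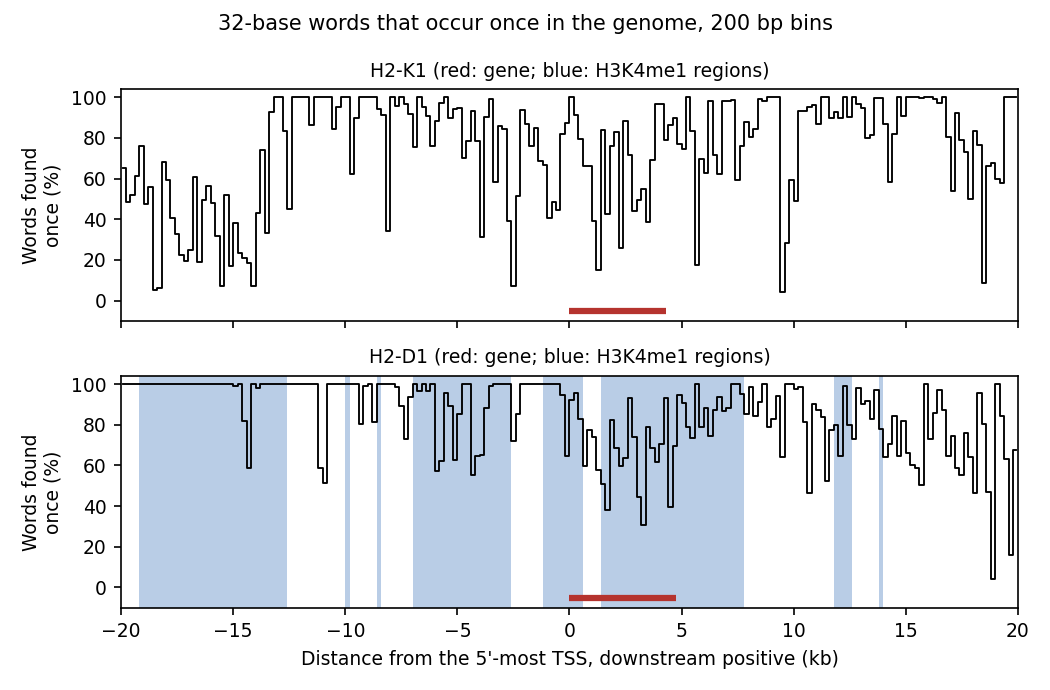
Share (%) of 32-base words that occur once in the mm9 genome, in bins of 200 bp around the 5′-most TSS of H2-K1 (top) and H2-D1 (bottom), with the gene as a red bar and H3K4me1 regions in blue. Both genes have bins of low uniqueness within the gene, and only H2-D1 has regions, which also lie over such bins. The part of uniqueness in this difference was not tested.

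Nlrc5 and Ciita encode the transactivators of MHC class I and class II genes, proteins of 1 family that act through factors bound to the promoters. Nlrc5 is annotated in GENCODE M1 as a lincRNA with no coding transcript, at chr8:96996663-97051172. This Nlrc5 record had 4 regions of 800 to 1200 bp, 3.8 kb in all, and none within 2 kb of a start. The record may lack the start of the coding transcript, so its distances and cover hold for the annotated starts only. Regions of 1.2 kb and 0.8 kb lay inside it 12.5 kb and 19.1 kb from its 5′-most start, 1 lay 14.3 kb upstream, and the last lay over the start of the next gene, Cpne2. The nearest wide region, of 4.8 kb (chr8:96955801-96960600), was 36.1 kb from the Nlrc5 start, at the lincRNA 9330175E14Rik, and outside the rule. In cover Nlrc5 was near the median gene.

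Ciita (chr16:10480237-10527657) is known to be transcribed from separate promoters in different cells, of which the last in the gene's direction, pIV, is the one that IFNγ induces in cells that are not professional antigen presenting cells. It had 2 regions, 1.6 kb in all. One, of 1.2 kb (chr16:10488801-10490000), covered the most downstream of its 5 annotated starts, at 10489876. The 3 starts before it, at 10488271, 10488372 and 10488392, lay 530, 429 and 409 bp upstream of this region, and the 5′-most start lay 8564 bp away. The other region, of 0.4 kb, was in an intron 10.1 kb past the last start. Regions were thus at the downstream starts of Ciita and not at the first, and the annotation does not name which start belongs to which promoter.

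Genes of the same pathway that are not among the 10 were taken from fixed lists. The immunoproteasome subunit gene Psmb10 and the activator subunit genes Psme1 and Psme2 all had a covered TSS, and so did Psmb5, Psmb6 and Psmb7, which encode the constitutive subunits. Within 20 kb of the 5′-most start Psmb10 had 9.5% covered, close to Psmb5 at 9.0%, Psmb6 at 8.0% and Psmb7 at 11%. Psme1 and Psme2, which lie side by side on chromosome 14 and share part of this sequence, had 35.6% and 52.0%. Among genes for peptide trimming and loading, Erap1, Calr and Tapbpl had a covered TSS, and Canx and Pdia3 had a region 1575 and 711 bp from one. The regulators that carry the IFNγ signal or bind class I and II promoters (Irf1, Rfx5, Nfyb, Nfyc and others) had a covered TSS in 6 of 14, and all 14 had a region within 2 kb of a start. Their median cover within 20 kb was 23.0%, from 1.5% at Rfxap to 58.0% at Irf1, an IFNγ-induced transcription factor gene. Over all protein-coding genes, 39.3% had a covered TSS and 62.1% a region within 2 kb of one.

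Fewer regions were found at class I genes other than H2-D1. Of 22 genes named H2-Q, H2-T or H2-M, 4 had a covered TSS (H2-M5, H2-Q10, H2-Q2 and H2-T24), beside 39.3% of protein-coding genes. By the rule 9 had a region, beside 76.4% of protein-coding genes, and 13 had none, as H2-K1. This list was taken by symbol, without regard to the tissues in which each gene is expressed. Of 11 class II pathway genes 2 had a covered TSS, H2-DMa and Cd74, and their median cover within 20 kb was 5.50%. H2-Ab1 and H2-Eb1, which encode the β chains of the class II molecules that antigen presenting cells show to CD4+ T cells, had their nearest regions 616 and 628 bp from a start. These differences between lists were not tested, and the uniqueness of sequence at the other class I genes was not computed.

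**Figure D5:**
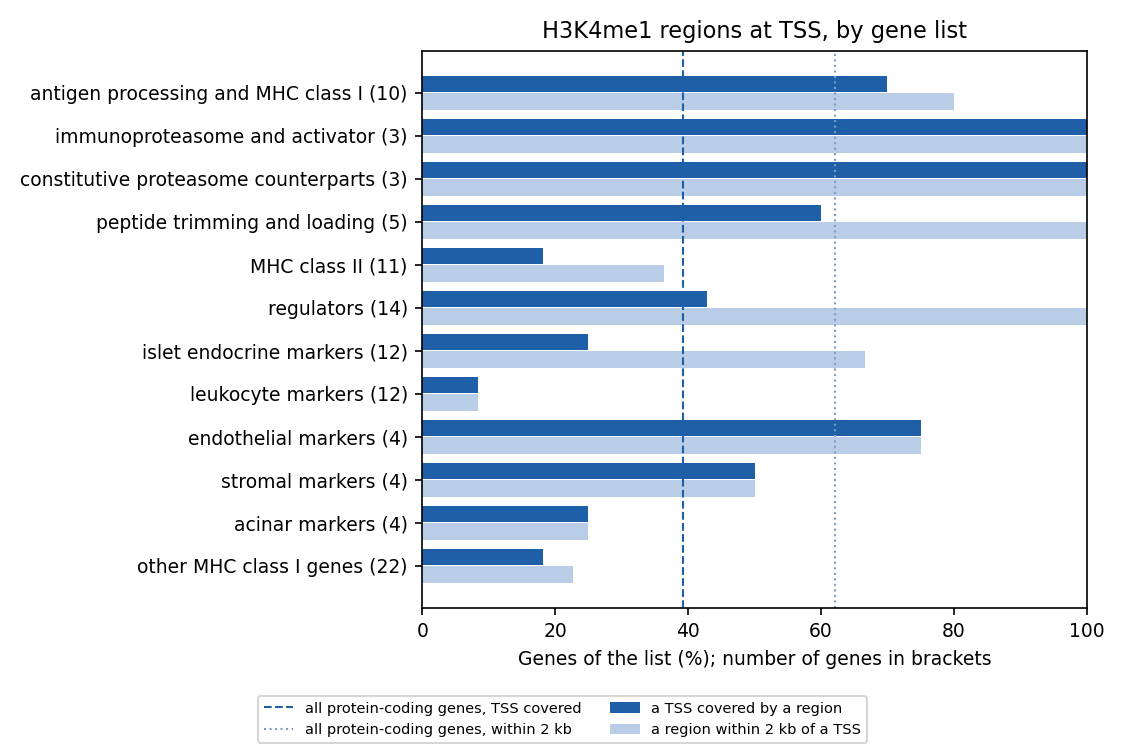
Share (%) of the genes of each list with a TSS inside an H3K4me1 region (dark) and with a region within 2 kb of a TSS (light); the number of genes is in brackets, and the lines give the shares over all protein-coding genes, 39.3% and 62.1%. The 10 genes have 70% and 80%, the other class I genes 18.2% with a covered TSS.

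Markers of the cells that islets can hold were read in the same list. Of 12 islet endocrine markers 11 had a region by the rule and 3 a covered TSS (Ins2, Slc2a2 and G6pc2), with a median of 30.3% covered within 20 kb, while Gcg, the glucagon gene of α-cells, had none. Of 12 leukocyte markers 7 had a region and 1, Cd68, a covered TSS, with a median of 0.75% covered. Cd68 had 31.6% covered, Cd79a 26.0% and Fcgr1 12.5%, above the median gene. Ptprc, which encodes the leukocyte antigen CD45, had 3 regions inside it, the nearest 30476 bp from a start, and Emr1, Itgam, Itgax, Lyz2 and Cd3e had none. A TSS was covered at 3 of 4 endothelial markers, 2 of 4 stromal markers and 1 of 4 acinar markers. Over all protein-coding genes 39.3% had a covered TSS, more than the 25% of the islet markers and the 8.33% of the leukocyte markers, and 76.4% had a region. Cover was thus higher around the islet markers than around the leukocyte markers, a difference that was not tested. Class I genes are used by nearly all cell types, and the part of each cell type in the regions at the 10 genes was not tested.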

How the data were processed

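The authors mapped the reads of 1 pooled H3K4me1 library to mm9 with Bowtie2 (2.2.1 per the labels), identified enriched regions with ChromHMM, and deposited each region's chromosome, start and end on a 200 bp grid, with no count, signal or p-value. Version and settings of ChromHMM, the read length and whether a filter on weakly covered loci preceded the deposited list are not given in the sources used here. An absent region can therefore reflect depth or the calling threshold.

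Starts were shifted by 1 to count from 1. Genes and TSS came from GENCODE M1, with gene records of the same symbol joined (Psmb9 and Ciita have 2 each). Distances ran from a TSS to the nearest edge of a region. The background was all 22208 protein-coding symbols on chromosomes 1 to 19 and X. With 1 library, no test was made and no replicate could be left out. Motifs were searched in windows on the 5′-most coding GENCODE start, and the printed sequences came from the RefSeq table (GRCm38.p6). The promoters of Tap2, Nlrc5 and Ciita were not analysed here. Words of 32 and 50 bases were looked up in the whole genome on both strands, at every base for the 10 genes and every 100 bp for all protein-coding genes.

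The 10 genes, the gene lists and the settings were chosen with earlier results of these data known. Named were the 10 genes, the listed pathway and marker genes, and genes that a region at the 10 genes overlaps. H2-Ea, also listed, was not matched to a protein-coding symbol and is not counted, and the leukocyte gene listed under both Emr1 and Adgre1 is counted once, as Emr1. 1 listed regulator is counted with its list, and its own values are not reported here. The overlap, distance and merge steps were tested on simulated regions. The motif search, the promoter alignment and the word counts were not tested in this way. The software was pysam 0.24.0, Biopython 1.88, matplotlib 3.10.9, scipy 1.17.1, pandas 2.3.3 and numpy 2.4.6 under Python 3.11.15. Alternatives were other minimum widths, merged regions, other windows, other choices of TSS, longer promoter windows, RefSeq windows (added after the data were seen) and longer words.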

Additional observations from a re-analysis of the deposited data

How the results depend on the processing

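Of 57 values recomputed under alternatives for 11 results, 46 were within a set tolerance of the value given and 11 were not. The tolerance was 1.5 times in either direction for a count, length or width, the 95% exact binomial interval for the share of protein-coding genes, and 1 SD over the 10 genes for the share of unique words. It is wide for small counts: a change from 8 to 6 genes with a region within 2 kb (distance to the midpoint), from 2 to 3 genes with a motif, or from a median width of 1200 to 1800 bp (regions of at least 400 bp) lies within it. With regions of at least 1000 bp, 19 regions remained at the 10 genes, with a median width of 3000 bp, and 35.8% of protein-coding genes had a covered TSS. When regions up to 1000 bp apart were joined, that share was 40.4%, and with TSS of protein-coding transcripts only it was 36.3%, beside 6 of the 10 genes, since the covered Tap2 start is non-coding. With the 5′-most TSS only, 3 of the 10 genes and 31.1% of protein-coding genes had a covered TSS. A window of 50 kb gave 52 regions over 125.6 kb. Promoter windows of 500 bp before to 100 bp after the GENCODE start held the interferon response element at 2 genes in place of 1. Over all promoters its share also rose, from 3.82% to 7.78%. RefSeq windows, added after the data were seen, held the GAS element at 1 gene in place of 2. Its share was 8.30% of all RefSeq windows in place of 7.94% of promoters. No paired analysis was possible because H3K4me1 regions of 1 library were analysed, and no replicate could be left out. The depth is unknown, so that an absent region, as at H2-K1, is one not called in this library, and not shown to be unmarked.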
